A study of Rattus norvegicus with 24 samples.

Results

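Interleukin-6 (IL-6) and the related cytokines leukaemia inhibitory factor (Lif) and oncostatin M (Osm) signal through receptors that share the subunit gp130, encoded by Il6st. The receptor activates JAK kinases, which phosphorylate the transcription factor STAT3, and STAT3 induces Socs3, a protein that binds gp130 and the JAKs and shuts the signal down. IL-10, an anti-inflammatory cytokine, acts through another receptor whose binding chain is Il10ra, and it uses STAT3 as well. In heart muscle, gp130 cytokines are known for protecting cardiomyocytes and for driving inflammation after injury. The 9 genes described here are Il6, Lif and Osm (ligands), Il6st and Osmr (receptor chains), Stat3 (transducer), Socs3 (inhibitor), and Il10 with Il10ra. They were found by matching the array's transcript accessions to rat RefSeq transcripts and taking all probes of these symbols. Each had 1 probe, so the set is 9 of 15168 genes named on the array, and all 9 were among the 12894 genes that passed the filter on dim probes and were tested.

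The series measured myocardial RNA of 24 rats on single-colour Agilent arrays, in 6 groups of 4 with 2 males and 2 females each. The labels name no acupuncture for sham rats or for rats with ischaemia-reperfusion injury alone (IRI), without stating that they had none. The Jiaji, Neiguan, Yanglingquan and Quchi groups had acupuncture at the point of that name for 7 days and then the same injury, made by closing off the left anterior descending artery. By these labels they differ from IRI by the acupuncture and from sham by both acupuncture and injury. No group is labelled as acupuncture without injury. The labels used here state neither strain nor age, nor when reperfusion began or the tissue was taken. One array stands for 1 numbered rat of its group. Nothing else ties arrays to separate animals, so the p-values describe spread between arrays, part of which may be technical.

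Levels are log2 signals minus the array's 75th percentile, so 0 is that percentile and a negative level is a fainter signal. Levels of different genes come from different probes and are not compared with each other. A gene is called, or said to rise or fall, where limma's adjusted p (Benjamini-Hochberg over all 12894 genes, group and sex in the model) was under 0.05. Of the 9 probes, 8 were well above background on all 24 arrays. The exception was Il10ra, at 20 of 24, with 3 of 4 arrays in Neiguan, 2 in Yanglingquan and 3 in Quchi. One Stat3 spot was marked as an outlier and left out in Yanglingquan replicate 1, so Stat3 has n = 3 there. Between 76.6% and 90.9% of probes were well above background per array, with the lowest values in Yanglingquan (76.6 to 80.9%). All 14 tested cardiomyocyte marker genes were above background on all 24 arrays. Each group was scanned separately; sham and IRI shared a scan day, and the acupoint groups were scanned on other days. For any acupoint group against IRI or sham, the scan day and the treatment cannot be told apart. As no scan held arrays of different groups, scan and group cannot be told apart in any comparison, IRI against sham included. The acupoint groups shared a day with each other except for Quchi replicate 1.

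After injury Il6 rose, by 2.14 ± 0.54 (SE) on the log2 scale, and it was the only one of the 9 genes called between IRI and sham. In Jiaji and Neiguan, Socs3 was higher than in IRI by 0.76 ± 0.16 and 0.72 ± 0.16, and Il10 by 0.78 ± 0.19 and 0.74 ± 0.19. No other of the 9 was called against IRI in these groups, and 0 of 9 were called in Yanglingquan or Quchi. Stat3, Il6st and Il10ra, the transducer and the receptor chains of both cytokines, were called in none of the 5 comparisons. For IRI against sham 5.75% of all genes were called, for Jiaji against IRI 10.2%, for Neiguan against IRI 5.63%, for Yanglingquan against IRI 12.1% and for Quchi against IRI 3.44%. Counting genes called higher alone, the shares were 4.72%, 8.39%, 4.41%, 4.09% and 2.39% in the same order, and counting genes called lower alone 1.03%, 1.8%, 1.23%, 8.03% and 1.05%. The median fold change of the 9 genes was 0.14 in IRI against sham, where that of all genes was -0.03. It was 0.27 in Jiaji and 0.28 in Neiguan against IRI (all genes -0.01 and -0.05), and -0.07 in Yanglingquan and 0.10 in Quchi (all genes -0.04 and 0.02).

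**Figure D1:**
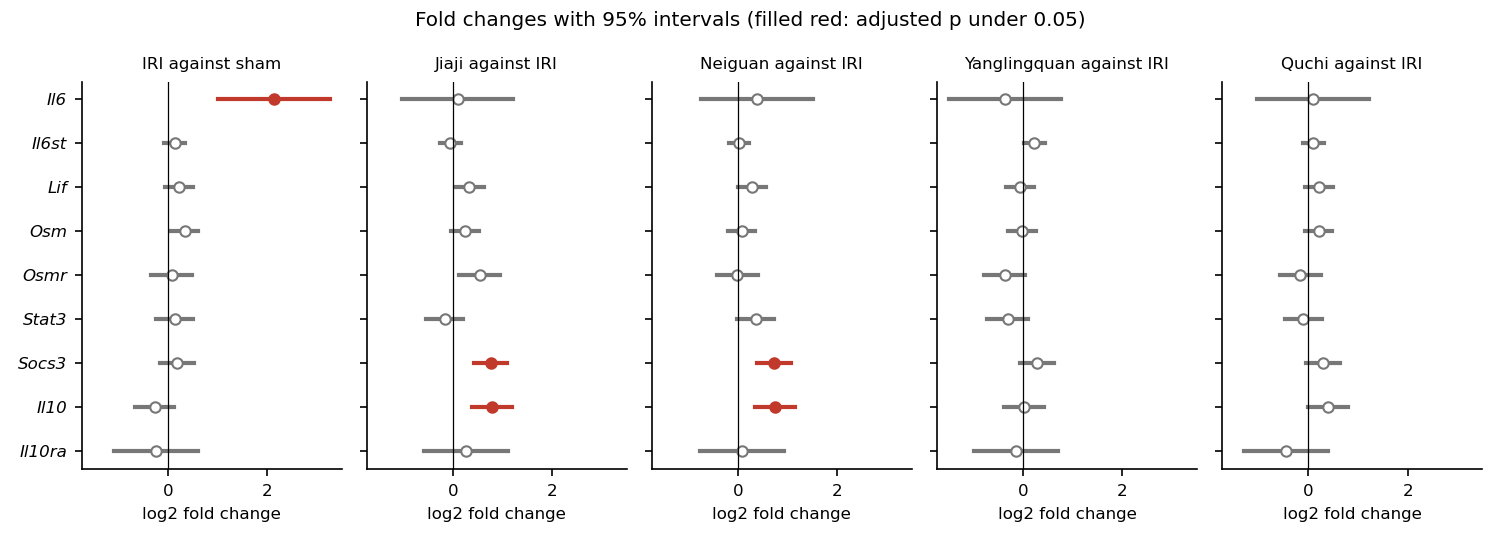
Log2 fold change (x axis) of each of the 9 genes (y axis) in 5 comparisons, with 95% intervals from limma; filled red marks an adjusted p under 0.05. Only Il6 is filled in IRI against sham, at 2.14, and only Socs3 and Il10 in Jiaji and Neiguan against IRI, between 0.72 and 0.78.

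Il6 encodes the founding cytokine of the family, which injured tissue, macrophages, fibroblasts and vessel cells release early. Its promoter is the classical example of a start site read by several inducible factors, and it is shown because Il6 made the largest change of the set. The RefSeq window from 250 bases before to 50 bases after the start (GRCr8, chr4:5894526-5894825, minus strand, written 5′ to 3′ along the gene) has the matches in capitals to a CRE motif (TGACGTCA, starting at -162), to a C/EBP motif (TTGCNNAA on either strand, at -152) and to the NF-kB consensus (by name, at -68).
Il6 promoter: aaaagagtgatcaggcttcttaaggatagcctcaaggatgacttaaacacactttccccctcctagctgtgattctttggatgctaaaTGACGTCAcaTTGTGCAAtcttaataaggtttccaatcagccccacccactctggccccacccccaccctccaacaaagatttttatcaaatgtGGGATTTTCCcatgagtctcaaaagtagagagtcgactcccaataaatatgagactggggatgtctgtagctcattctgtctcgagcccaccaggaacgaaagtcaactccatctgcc
None of these matches overlaps another. Among 33469 RefSeq promoter windows of the same length, 1.83% held the CRE motif, 10.6% the C/EBP motif and 4.18% the NF-kB consensus on either strand. The STAT motif TTCNNNGAA was found in 8.87% of the windows and in none of the 6 windows matched to the 9 genes (Il6, Il6st, Osmr, Stat3, Socs3, Il10ra), which says only that these letters are absent from those windows. The AP-1 motif TGANTCA, found in 7.33%, matched in the Osmr window, and the NF-kB consensus in that of Socs3, whose start in the table may not be its main one. These are letter matches and no measure of binding.

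In sham hearts Il6 was at -3.23, -4.41, -4.25 and -3.01 in replicates 1 to 4, and in IRI hearts at -1.81, -1.14, -2.90 and -0.51. The groups did not overlap, and the means were -3.73 ± 0.71 (SD, n = 4) and -1.59 ± 1.02, a 4.40-fold difference (limma adjusted p = 0.0213). The array carries the Il6 probe on 10 spots, whose log2 signals had an SD of 0.021 to 0.131 within an array, far below the spread between arrays. Spots of an array share its RNA and labelling, so their SD does not measure technical spread between arrays. The call held in 31 of 37 alternative settings. It ended without IRI replicate 2 (1.80, adjusted p = 0.085), IRI replicate 4 (1.94, 0.0729), sham replicate 2 (1.71, 0.0795) or sham replicate 3 (2.13, 0.057), without the sex term (adjusted p = 0.059) and with only these 8 arrays fitted (0.0693). In whole-tissue RNA, more cells of an Il6-expressing type and more Il6 RNA per cell cannot be told apart.

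No acupoint group differed detectably from IRI in Il6. The levels were -0.86, -3.24, -1.40 and -0.51 in Jiaji and -0.27, -2.86, -0.77 and -0.95 in Neiguan. In Yanglingquan they were -0.92, -0.85, -2.95 and -3.14, and in Quchi -1.26, -1.41, -2.10 and -1.24. Each of these 4 groups overlapped IRI, and Jiaji, Neiguan and Yanglingquan each spanned more than 2 log2 units. Against IRI the differences were 0.09 (95% interval -1.04 to 1.22) in Jiaji, 0.38 (-0.75 to 1.50) in Neiguan, -0.37 (-1.50 to 0.75) in Yanglingquan and 0.09 (-1.04 to 1.21) in Quchi, with limma adjusted p = 0.71 to 0.952. These intervals are not adjusted for the number of genes tested and are no limit of what 4 rats per group could detect. Against sham, Il6 rose in all 4 groups, by 2.23 ± 0.54 in Jiaji, 2.51 ± 0.54 in Neiguan, 1.76 ± 0.54 in Yanglingquan and 2.22 ± 0.54 in Quchi (adjusted p = 0.00491, 0.00241, 0.0367 and 0.00655). All Neiguan and Quchi arrays lay above all sham arrays, while Jiaji (replicate 2, at -3.24) and Yanglingquan (replicate 4, at -3.14) each had an array within the range of sham. These comparisons share the sham arrays. The calls in Jiaji, Neiguan and Quchi held in all 37 alternatives. That in Yanglingquan held in 26 and ended, among others, without sham replicate 1, 2 or 3 (1.76, 1.34 and 1.76, adjusted p = 0.0629, 0.15 and 0.073) or Yanglingquan replicate 1 or 2 (1.58 and 1.55, adjusted p = 0.088 and 0.102).

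**Figure D2:**
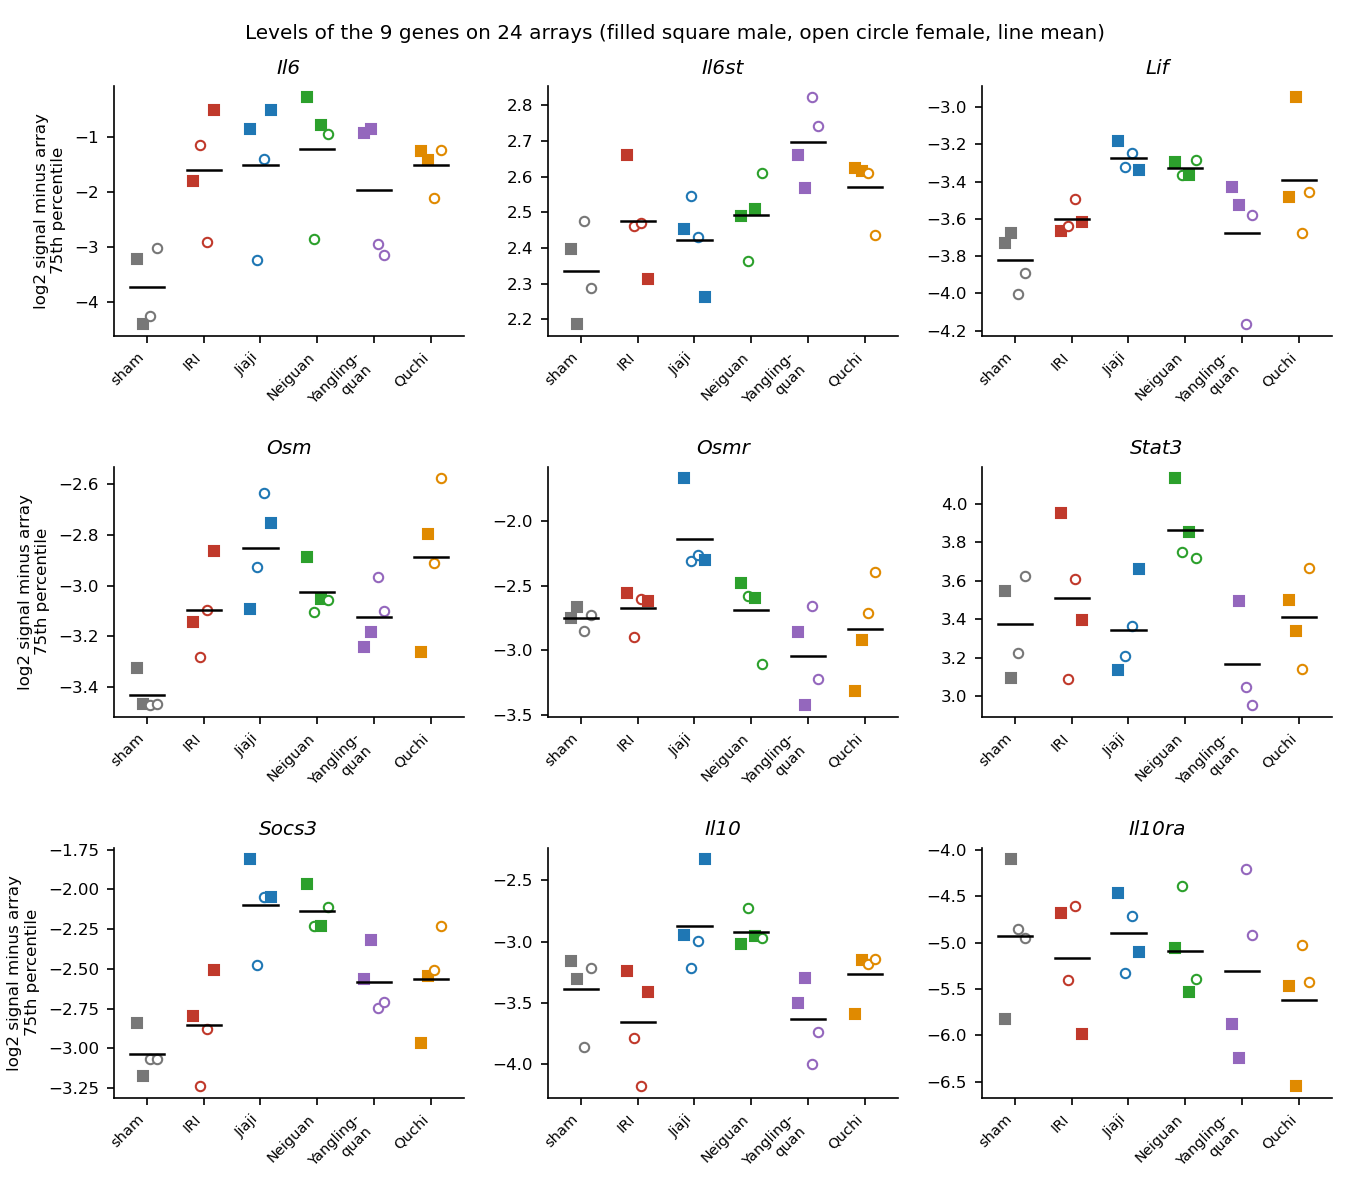
Level of each gene (log2 signal minus the array's 75th percentile, y axes differ) on each of 24 arrays by group; filled squares are males, open circles females and lines group means. All 4 Jiaji and all 4 Neiguan arrays lie above all 4 IRI arrays for Socs3 and for Il10, and all 4 sham arrays lie below all 4 IRI arrays for Il6.

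Il6 was also set out by sex. Among the 20 injured rats, the 10 males lay between -1.81 and -0.27 (median -0.85) and the 10 females between -3.24 and -0.95 (median -2.48). The female mean was the lower one in each of the 5 injured groups, with 2 rats of each sex per group, by 0.34 in Quchi (difference -0.34), 0.86 in IRI (-0.86), 1.38 in Neiguan (-1.38), 1.64 in Jiaji (-1.64) and 2.16 in Yanglingquan (-2.16). In sham the female mean was -3.63 and the male mean -3.82. Over the injured groups the difference was -1.27 ± 0.33 (unadjusted p = 0.00137, limma adjusted p = 0.0851), and over all 6 groups -1.03 ± 0.31 (adjusted p = 0.184). Neither passed, and these values were examined after they had been seen. Of all genes, 0.59% were called between the sexes in the injured groups and 0.209% over all groups. Of the 9 genes 0 were called over all groups. There 2 of the 9 (Il6 and Il10) and 1606 of all 12894 genes were at an unadjusted p under 0.05. The test of whether the rise from sham to IRI differed by sex gave -1.05 ± 1.03 for females minus males (limma adjusted p = 1.0; 0% of all genes called).

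**Figure D3:**
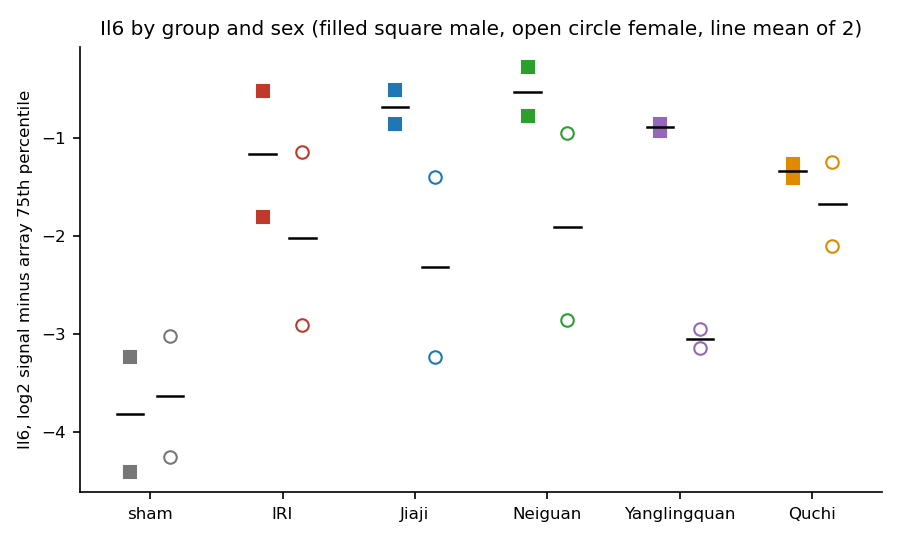
Il6 level (log2 signal minus the array's 75th percentile) by group, with the 2 males (filled squares) and 2 females (open circles) of each group and the mean of each pair. The female mean lies below the male mean in all 5 injured groups, by up to 2.16 in Yanglingquan, and 0.18 above it in sham.

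Lif and Osm, the other gp130 ligands of the set, are neighbours on rat chromosome 14 with 0 protein-coding genes between them in the RefSeq table. Both were called against sham in Jiaji, Neiguan and Quchi and in no comparison with IRI. Lif was at -3.73, -3.67, -4.00 and -3.89 in sham and at -3.66, -3.64, -3.49 and -3.61 in IRI. It was at -3.18, -3.32, -3.25 and -3.34 in Jiaji, at -3.29, -3.37, -3.36 and -3.28 in Neiguan, at -3.43, -3.52, -4.17 and -3.58 in Yanglingquan and at -3.48, -2.95, -3.67 and -3.45 in Quchi. The Jiaji and Neiguan arrays lay above all sham and all IRI arrays, while Yanglingquan and Quchi overlapped both. The rise over sham was 0.55 ± 0.14 in Jiaji, 0.50 ± 0.14 in Neiguan and 0.43 ± 0.14 in Quchi (adjusted p = 0.00591, 0.0147 and 0.0295). Against IRI, Lif stood at 0.33 ± 0.14 in Jiaji and 0.28 ± 0.14 in Neiguan and did not pass (adjusted p = 0.143 and 0.27).

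Osm, which neutrophils and macrophages are known to release, was at -3.32, -3.46, -3.47 and -3.47 in sham and at -3.14, -3.28, -3.09 and -2.86 in IRI. It was at -3.09, -2.93, -2.63 and -2.75 in Jiaji, -2.89, -3.10, -3.05 and -3.06 in Neiguan, -3.24, -3.18, -2.96 and -3.10 in Yanglingquan, and -3.26, -2.80, -2.91 and -2.58 in Quchi. All 20 injured hearts lay above all 4 sham hearts. The differences from sham were 0.34 ± 0.13 in IRI and 0.31 ± 0.13 in Yanglingquan, which did not pass (adjusted p = 0.165 and 0.13), and 0.58 ± 0.13 in Jiaji, 0.41 ± 0.13 in Neiguan and 0.54 ± 0.13 in Quchi, which did (adjusted p = 0.003, 0.0353 and 0.00662). The share of all genes called against sham was 24% in Jiaji, 19.9% in Neiguan, 13% in Yanglingquan and 21.1% in Quchi, against 5, 4, 2 and 4 of the 9 genes, all higher. Genes called higher alone made up 17.5%, 12.5%, 5.79% and 11.8% of all genes, and genes called lower 6.55%, 7.39%, 7.21% and 9.26%.

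These small increases of the faint ligands moved with the scaling. With quantile normalization, with arrays centred on their median, with normexp and in the authors' deposited log2 values, Lif and Osm were not called against sham in Jiaji or Neiguan. There Lif ranged from 0.13 to 0.35 and Osm from 0.15 to 0.30 (adjusted p = 0.0553 to 0.251). In Neiguan the Lif call also ended without Neiguan replicate 4 or sham replicate 3 (0.45 and 0.46, adjusted p = 0.0531 and 0.051). The Osm call there also ended without Neiguan replicate 1, 3 or 4 or sham replicate 2, 3 or 4 (0.35 to 0.42, adjusted p = 0.0639 to 0.114). In Quchi the Osm call held in 36 of 37 alternatives, ending with only the groups compared (adjusted p = 0.054). That of Lif held in 27. It ended under the same 4 scaling settings, with the percentile taken over probes above background on all arrays and with only the groups compared (0.16 to 0.43, adjusted p = 0.0587 to 0.163), and without Quchi replicate 2 or 4 or sham replicate 3 or 4 (0.30 to 0.44, adjusted p = 0.0544 to 0.141). Genes were divided by mean level into 4 classes of equal size. The median of the faintest class stood at 0.37 in Jiaji, 0.10 in Neiguan and 0.24 in Quchi against sham, and its part in these results was not tested. Lif and Osm themselves belong to the second faintest class, where the medians were -0.01, -0.10 and -0.06.

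Il6st, the shared signalling chain gp130, varied little. The lowest and highest levels were 2.19 and 2.47 in sham, 2.31 and 2.66 in IRI, 2.26 and 2.55 in Jiaji, 2.36 and 2.61 in Neiguan, 2.57 and 2.82 in Yanglingquan and 2.44 and 2.62 in Quchi. Every Yanglingquan array lay above every sham array, and the rise over sham was 0.36 ± 0.10 (1.28-fold, adjusted p = 0.0229). The difference of Yanglingquan from IRI was 0.22 ± 0.10 (adjusted p = 0.163). The call against sham held in 29 of 37 alternatives. It ended with quantile normalization, normexp and the authors' deposited values (0.23 to 0.29, adjusted p = 0.0767 to 0.196) and without sham replicate 2 or 4 or Yanglingquan replicate 3 or 4 (0.32 to 0.35, adjusted p = 0.0546 to 0.0889), and with only the groups compared (0.101). In IRI against sham Il6st stood at 0.14 (95% interval -0.07 to 0.35).

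Osmr, the oncostatin M receptor chain that pairs with gp130, was highest in Jiaji. Its levels there were -1.67, -2.31, -2.26 and -2.30, above all 4 sham arrays (-2.85 to -2.67) and all 4 IRI arrays (-2.90 to -2.55). Jiaji exceeded sham by 0.62 ± 0.20 (adjusted p = 0.0287), a call that ended without Jiaji replicate 1 (0.45, adjusted p = 0.115), without sham replicate 1, 3 or 4 (0.58 to 0.63, adjusted p = 0.0554 to 0.073) and under the 4 scaling settings named for Lif (0.30 to 0.39, adjusted p = 0.0721 to 0.102). Against IRI it stood at 0.53 ± 0.20 and did not pass (adjusted p = 0.098). In Neiguan, Yanglingquan and Quchi, Osmr lay at -2.69 ± 0.28 (SD, n = 4), -3.04 ± 0.35 and -2.84 ± 0.38, overlapping both sham and IRI.

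Of the wider list of gp130 ligands and receptors, 10 of 15 genes were tested and 0 were called in IRI against sham, Jiaji against IRI, Neiguan against IRI or Quchi against IRI. In limma's test Il6r, the IL-6 binding chain, stood at -0.38 ± 0.21 in IRI against sham (adjusted p = 0.38), and Lifr, the receptor for Lif, at -0.30 ± 0.16 (adjusted p = 0.336). In Yanglingquan 1 gene of the list fell below IRI: Cntfr, the binding chain for ciliary neurotrophic factor, was at least 1.28-fold lower, being well above background on 4 IRI arrays and 0 Yanglingquan arrays (adjusted p = 0.0093). That bound holds for the main signals and counts the lowest well-measured signal of each Yanglingquan array as its level. With quantile normalization, normexp and the authors' deposited values the call ended, at log2 fold changes of -1.28 to -0.31. Cntfr belongs to the faintest class of genes, whose median stood at -0.37 in Yanglingquan against IRI, with 637 of 3223 genes called lower and 67 higher. The part of this shift in the fall of Cntfr was not tested. Against sham, Il11ra1, the IL-11 receptor chain, fell in Neiguan by 0.56 ± 0.16 (log2 fold change -0.56, adjusted p = 0.0181). In Quchi the cardiotrophin gene Ctf1 fell by 0.35 ± 0.12 (adjusted p = 0.0355). The Il11ra1 call ended without sham replicate 2 or 3 (-0.48 and -0.44, adjusted p = 0.0697 and 0.0841), and with only the groups compared (adjusted p = 0.0601). That of Ctf1 ended without any of Quchi replicates 1 to 3 or sham replicates 2 to 4 (-0.36 to -0.32, adjusted p = 0.0608 to 0.0929), with quantile normalization and the authors' deposited values (both -0.32, adjusted p = 0.0535 and 0.0544) and with only the groups compared (0.0566).

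Stat3, the transcription factor on which both cytokines converge, gave a bright signal on every array. It was at 3.55, 3.10, 3.23 and 3.63 in sham, 3.95, 3.09, 3.61 and 3.40 in IRI, and 3.13, 3.21, 3.37 and 3.66 in Jiaji. Neiguan had 4.13, 3.75, 3.85 and 3.72, Yanglingquan 3.50, 3.05 and 2.95, and Quchi 3.50, 3.34, 3.14 and 3.67. Neiguan lay above all sham, Jiaji, Yanglingquan and Quchi arrays and overlapped IRI. Against IRI the differences were between -0.32 and 0.35 (adjusted p = 0.278 to 0.81) and against sham between -0.18 and 0.49, the largest in Neiguan (0.49 ± 0.18, adjusted p = 0.0574). That difference was called in 9 of 37 alternatives, among them quantile normalization, normexp and the authors' deposited values. The arrays measure Stat3 RNA and not its phosphorylation.

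Among JAKs, STATs and their negative regulators 22 of 25 genes were tested. The genes Jak1 and Jak2, whose kinases dock to gp130, stood at -0.01 ± 0.22 and -0.09 ± 0.17 in IRI against sham (adjusted p = 0.988 and 0.854). Socs1, a relative of Socs3 best known for curbing interferon signals, was the 1 gene of the list called between IRI and sham. It rose from -4.60 ± 0.18 (SD, n = 4) to -3.76 ± 0.08, by 0.83 ± 0.14 (adjusted p = 0.00119), and the call held in all 37 alternatives. In Yanglingquan it fell below IRI to -4.48 ± 0.28, by 0.71 ± 0.14 (log2 fold change -0.71, adjusted p = 0.00266), a call that held in 36 of 37, ending with normexp (-0.25). Socs1 too belongs to the faintest class, with its median of -0.37 in this comparison, whose part was not tested. Against sham, Socs1 rose in Jiaji by 1.12 ± 0.14, in Neiguan by 1.16 ± 0.14 and in Quchi by 0.71 ± 0.14 (adjusted p = 7.92e-06, 5.7e-06 and 0.00168), of which the Quchi call ended with normexp (0.21). In all, 3 of the 22 were higher and 2 lower than sham in Jiaji, 2 and 1 in Neiguan, 0 and 0 in Yanglingquan, and 1 and 3 in Quchi. Of all genes 17.5% were higher and 6.55% lower in Jiaji, 12.5% and 7.39% in Neiguan, 5.79% and 7.21% in Yanglingquan, and 11.8% and 9.26% in Quchi. The share of the list called higher thus exceeded that of all genes in none of the 4. The share called lower exceeded that of all genes in Jiaji and Quchi and not in Neiguan or Yanglingquan. The STAT5 feedback gene Cish rose in Jiaji and Neiguan by 0.61 ± 0.17 and 0.60 ± 0.17 (adjusted p = 0.0131 and 0.0175), and its other probe by 0.48 and 0.55. The Jiaji call of Cish ended with arrays centred on their median (0.33, adjusted p = 0.0699), and the Neiguan call without Neiguan replicate 1 or sham replicate 3 (0.55 and 0.57, adjusted p = 0.0582 and 0.0531). In Quchi, Pias1, a SUMO ligase, fell (log2 fold change -1.003 ± 0.22, adjusted p = 0.00351), and this held in all 37 alternatives.

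Socs3, the feedback inhibitor of gp130 and a STAT3 target, was higher in Jiaji and Neiguan than in IRI. It was at -2.84, -3.17, -3.07 and -3.07 in sham, -2.80, -3.24, -2.88 and -2.51 in IRI, -1.81, -2.48, -2.05 and -2.05 in Jiaji and -1.97, -2.23, -2.23 and -2.11 in Neiguan. Every Jiaji and every Neiguan array lay above every IRI and every sham array, in Jiaji by a margin of 0.03 between its lowest array and the highest of IRI (-2.48 against -2.51). Jiaji exceeded IRI 1.69-fold (limma adjusted p = 0.00414) and Neiguan exceeded IRI 1.65-fold (adjusted p = 0.00879). Both calls held in all 37 alternatives, with values from 0.51 to 0.87 and from 0.54 to 0.82. Between IRI and sham, Socs3 differed by 0.18 ± 0.16 (95% interval -0.16 to 0.52, adjusted p = 0.645), while Il6 rose 4.40-fold.

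Yanglingquan had Socs3 levels of -2.57, -2.32, -2.75 and -2.71, and Quchi of -2.96, -2.55, -2.51 and -2.23. Both groups overlapped IRI, and their differences from it were 0.27 (95% interval -0.07 to 0.61) and 0.29 (-0.05 to 0.63), with adjusted p = 0.31 and 0.341. Against sham, Socs3 rose in Jiaji by 0.94 ± 0.16, in Neiguan by 0.90 ± 0.16 and in Quchi by 0.47 ± 0.16 (adjusted p = 0.000239, 0.000469 and 0.0429), and stood at 0.45 ± 0.16 in Yanglingquan (adjusted p = 0.071). The calls in Jiaji and Neiguan held in all 37 alternatives. That in Quchi held in 25, ending among others without Quchi replicate 2, 3 or 4, sham replicate 2, 3 or 4, or IRI replicate 1 or 3 (0.33 to 0.49, adjusted p = 0.0502 to 0.154). The value in Yanglingquan passed in 5 of 37, quantile normalization among them.

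**Figure D4:**
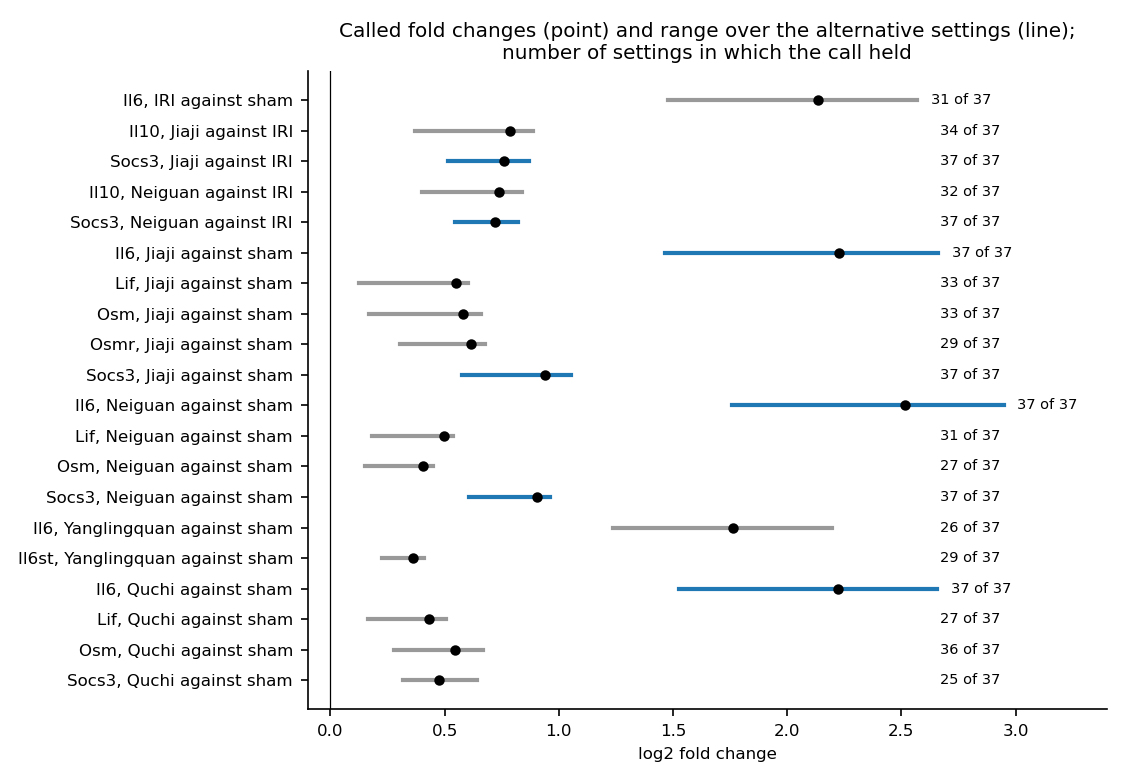
Called fold changes against IRI or sham (points, log2) with their range over 37 alternative settings (lines) and the number of settings in which the call held; blue lines held in all 37. Socs3 in Jiaji and Neiguan held in all 37 against both IRI and sham, while the smaller changes of Lif, Osm and Osmr held in 27 to 36.

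Many other genes followed the pattern of Socs3 over the 24 arrays. With a Pearson r of at least 0.8, 355 of 12893 genes did, against 13 for Il6 and 4 for Il10. Of the 355, 59 belonged to the faintest class of genes, 173 to the next, which also holds Socs3, 100 to the third and 23 to the brightest. Their median fold change was 0.77 in Jiaji and 0.70 in Neiguan against IRI, close to that of Socs3 as their choice by likeness implies, while the whole class holding Socs3 had medians of 0.08 and -0.02. The 5 most alike were the water channel gene Aqp4 (r = 0.949), the tight junction gene Cldn9 (0.948), the sarcoglycan gene Sgcz (0.946) and the airway secretory protein genes Bpifa1 (0.935) and Bpifa3 (0.932), all of the same brightness class as Socs3. After removing group means and sex their r with Socs3 was 0.78 to 0.86. Their choice by r over the same 24 arrays favours such values, so these are no separate evidence of likeness. Another probe of Aqp4 stood at 0.57 in Jiaji and -0.31 in Neiguan against IRI, where the chosen probe stood at 0.96 and 0.87. Another probe of Bpifa3 stood at 0.50 in Jiaji and 0.28 in Neiguan against IRI, where the chosen probe stood at 0.87 and 0.77. The arrays share their group, scan and labelling, and the part of these in the result was not tested.

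The genes most like Il6 were of another kind. They were the hyaluronan synthase gene Has1 (r = 0.911), the neutrophil chemokine gene Cxcl1 (0.905), the hyaluronan-binding, TNF-induced gene Tnfaip6 (0.894), the AP-1 gene Fosl1 (0.871) and the cell cycle inhibitor gene Cdkn1a (0.869). After removing group means and sex r was 0.66 to 0.905. As these genes were chosen by likeness to Il6 over the same 24 arrays, the choice favours both this r and a rise over sham. In IRI against sham, Cxcl1 rose by 2.05 ± 0.38, Fosl1 by 2.21 ± 0.49, Has1 by 1.11 ± 0.28 and Cdkn1a by 0.60 ± 0.13 (adjusted p = 0.00223, 0.00901, 0.0218 and 0.0103), and Tnfaip6 stood at 0.72 ± 0.23 (adjusted p = 0.0735). Fosl1 was well above background on 2 of 4 sham arrays. Another probe stood at 0.22 for Has1 and 0.53 for Cdkn1a. Over the 24 arrays Socs3 had r = 0.622 with Il6, 0.686 with Osm, 0.656 with Lif and 0.688 with Il10.

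**Figure D5:**
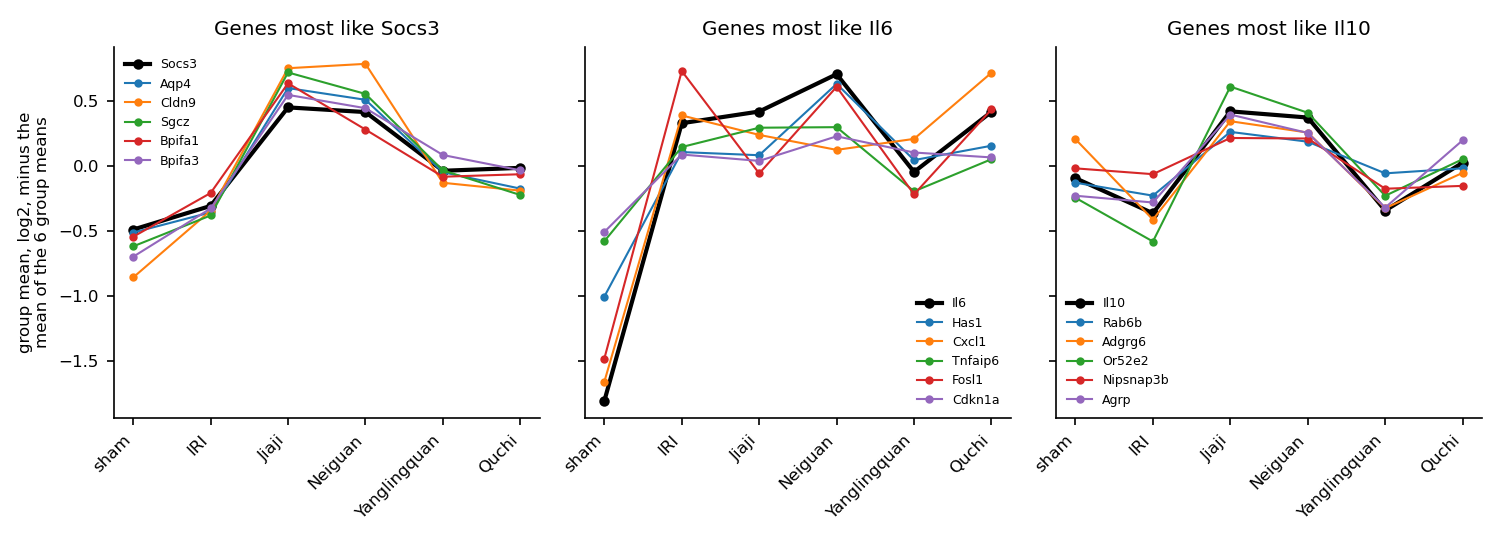
Group means (log2, minus the mean of the 6 group means) of Socs3, Il6 and Il10 (black) and of the 5 genes with the highest Pearson r to each over 24 arrays (colours). Socs3 and its 5 genes peak in Jiaji and Neiguan, and Il6 and its 5 genes are lowest in sham, which their choice by likeness favours.

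Il10, the anti-inflammatory cytokine gene, showed its increase over IRI in the same groups as Socs3. It was at -3.16, -3.30, -3.86 and -3.22 in sham, -3.24, -3.79, -4.18 and -3.41 in IRI, -2.95, -3.21, -2.99 and -2.33 in Jiaji and -3.02, -2.72, -2.96 and -2.97 in Neiguan. All Jiaji and Neiguan arrays lay above all IRI arrays, whose mean was below that of sham (-0.27 ± 0.19, adjusted p = 0.526). The rise over IRI was 1.72-fold in Jiaji (limma adjusted p = 0.0113) and 1.67-fold in Neiguan (adjusted p = 0.0256). Against sham the differences of 0.51 ± 0.19 and 0.47 ± 0.19 did not pass (adjusted p = 0.0573 and 0.0911). Yanglingquan had -3.50, -3.30, -4.00 and -3.74 and Quchi -3.59, -3.15, -3.18 and -3.14, and their differences from IRI were 0.02 (95% interval -0.38 to 0.42) and 0.39 (-0.01 to 0.79).

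The Il10 call in Jiaji ended with quantile normalization, the authors' deposited values and normexp (0.57, 0.57 and 0.37, adjusted p = 0.0686, 0.0688 and 0.0512). In Neiguan it held under these and ended with only the IRI and Neiguan arrays fitted (adjusted p = 0.0616) and without IRI replicate 2 or 3 (0.74 and 0.60, adjusted p = 0.0677 and 0.0958) or Neiguan replicate 2 or 4 (0.62 and 0.71, adjusted p = 0.0818 and 0.0777). The genes most like Il10 were the Golgi GTPase gene Rab6b (r = 0.855), the adhesion receptor gene Adgrg6 (0.823), the olfactory receptor gene Or52e2 (0.817), Nipsnap3b (0.804) and the neuropeptide gene Agrp (0.797). Another Rab6b probe moved the other way in Jiaji against IRI (-0.90, where the chosen probe stood at 0.49).

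Il10ra, the ligand-binding chain of the IL-10 receptor, varied widely, with SDs within groups of 0.385 to 0.926 (n = 4). Its lowest and highest levels were -5.82 and -4.10 in sham, -5.99 and -4.60 in IRI, -5.32 and -4.47 in Jiaji, -5.54 and -4.39 in Neiguan, -6.24 and -4.20 in Yanglingquan and -6.55 and -5.03 in Quchi. All groups overlapped each other, and 0 of 15 pairs of groups were called. The interval of IRI against sham ran from -1.08 to 0.61. Il10rb, the shared second chain, stood at -0.06 ± 0.17 in IRI against sham (adjusted p = 0.905).

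Of the wider IL-10 family and its receptors 6 of 9 genes were tested. Il20, a family member known from skin and epithelia that signals through STAT3, was called in more comparisons than Il10 itself. It rose from -3.85 ± 0.27 (SD, n = 4) in sham to -2.55 ± 0.27 in IRI, by 1.31 ± 0.22 (adjusted p = 0.001), and stood at -1.86 ± 0.38 in Jiaji, -1.50 ± 0.48 in Neiguan, -2.61 ± 0.25 in Yanglingquan and -2.74 ± 0.31 in Quchi. Neiguan exceeded IRI by 1.04 ± 0.22 (adjusted p = 0.00463), and both this and the rise after injury held in all 37 alternatives. In Jiaji it exceeded IRI by 0.68 ± 0.22 (adjusted p = 0.0487), a call so close to the threshold that it held in 12 of 37 alternatives; leaving out Neiguan replicate 2, for example, gave 0.68 with adjusted p = 0.0519, and leaving out any of 18 arrays ended it (adjusted p = 0.0505 to 0.14). Il24 was called in Jiaji against IRI (fitted log2 difference 1.15 ± 0.35, adjusted p = 0.0413), but its size is uncertain. It was well above background on 1 of 4 IRI arrays, on 4 of 4 Jiaji arrays and on 4 of 4 sham arrays. That call ended with quantile normalization and normexp (0.92 and 0.11, adjusted p = 0.0965 and 0.377), and without IRI replicate 1, 2 or 4, Jiaji replicate 1, 3 or 4, or Neiguan replicate 3 (0.95 to 1.24, adjusted p = 0.0505 to 0.152). Il22ra1, the IL-22 receptor chain, was by the main signals at least 1.40-fold lower in Yanglingquan than in IRI, with 0 of 4 arrays above background (adjusted p = 0.00873). With quantile normalization, normexp and the authors' deposited values this call ended, at log2 fold changes of -1.29 to -0.24. Il22ra1 is of the faintest class as well, with the same median of -0.37, whose part was not tested.

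Between the acupoint groups, 4 of the 9 genes differed by limma's F test, where 39.1% of all genes did: Osmr (adjusted p = 0.00759), Il10 (0.0115), Socs3 (0.0246) and Stat3 (0.0281). The acupoint groups shared a scan day except for Quchi replicate 1, but no scan, so scan and acupoint cannot be told apart. Jiaji and Neiguan, the groups with the higher Socs3 and Il10, did not separate in limma's test: 0 of 9 genes and 0% of all genes were called between them. At an unadjusted p under 0.05 were 2 of the 9 (Osmr at 0.56 ± 0.20 and Stat3 at -0.52 ± 0.18, adjusted p = 0.373 and 0.363) and 1498 of all 12894 genes. For Socs3 the difference between Jiaji and Neiguan was 0.04 (95% interval -0.30 to 0.38) and for Il10 0.05 (-0.35 to 0.45). Jiaji exceeded Yanglingquan in Osmr by 0.91 ± 0.20, in Il10 by 0.76 ± 0.19, in Socs3 by 0.49 ± 0.16 and in Lif by 0.40 ± 0.14 (adjusted p = 0.00216, 0.00577, 0.0289 and 0.032), and was lower in Il6st by 0.27 ± 0.10 (log2 fold change -0.27, adjusted p = 0.0444); 29.8% of all genes were called in this comparison. Neiguan exceeded Yanglingquan in Il10 by 0.72 ± 0.19 and in Stat3 by 0.67 ± 0.19 (adjusted p = 0.0146 and 0.0218), where 20.6% of all genes were called. Jiaji exceeded Quchi in Osmr by 0.70 ± 0.20 and in Socs3 by 0.47 ± 0.16 (adjusted p = 0.0184 and 0.0474; 20.9% of all genes called).

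The Osmr difference between Jiaji and Yanglingquan, and its F test, held in all 37 alternatives, the former at 0.48 to 1.04. The others depended on the setting. With quantile normalization, arrays centred on their median, normexp or the authors' deposited values, Socs3 did not pass between Jiaji and Yanglingquan (0.16 to 0.25, adjusted p = 0.131 to 0.39), nor did Il10 (0.27 to 0.44, adjusted p = 0.068 to 0.184) or Lif. Between Jiaji and Yanglingquan the Socs3 call also ended without Jiaji replicate 1, 3 or 4 or Yanglingquan replicate 1, 3 or 4 (0.41 to 0.49, adjusted p = 0.0515 to 0.0976). That of Lif ended without Jiaji replicate 1, 2 or 3 or Yanglingquan replicate 3 (0.26 to 0.40, adjusted p = 0.0567 to 0.13), and that of Il6st held in 19 of 37. With only the groups compared none of these 3 passed (adjusted p = 0.0591, 0.143 and 0.182). Socs3 between Jiaji and Quchi held in 11 of 37, and without Quchi replicate 1, the array scanned on another day, it stood at 0.30 (adjusted p = 0.21). Osmr between Jiaji and Quchi stood at 0.53 without that array (adjusted p = 0.0864), and its call also ended without Jiaji replicate 1 or Quchi replicate 2 (0.54 and 0.67, adjusted p = 0.0838 and 0.0546) and with only the groups compared (0.101). Between Neiguan and Yanglingquan, Stat3 was not called without Neiguan replicate 1 or Yanglingquan replicate 3 or 4 (0.59 to 0.64, adjusted p = 0.0588 to 0.0753) or with arrays centred on their median (0.47, 0.107). Il10 was not called there without Neiguan replicate 2 (0.60, adjusted p = 0.0523) or with quantile normalization, normexp or the authors' deposited values (0.30 to 0.49, adjusted p = 0.0939 to 0.0978). The F tests of Il10 and Socs3 did not pass under any of the 4 scaling settings (adjusted p = 0.0933 to 0.174 and 0.0684 to 0.149), and that of Socs3 not with only the acupoint groups fitted (0.0518). The F test of Stat3 ended without Neiguan replicate 1, 2 or 4 or Yanglingquan replicate 4 (adjusted p = 0.0535 to 0.0956). Neiguan against Quchi and Yanglingquan against Quchi had 0 of 9 genes called by limma, with 2 and 0 at an unadjusted p under 0.05 (14.5% and 16.1% of all genes called). Of all 12894 genes, 3895 and 3894 were at an unadjusted p under 0.05 in these comparisons. Ordered by mean, 45 pairs of neighbouring groups arise for the 9 genes, and 1 of them, Yanglingquan over sham for Il6, passed.

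Of genes known as STAT3 targets, 27 of 29 were tested. In IRI against sham 1 rose and 0 fell, with a median of 0.22 over the list and -0.03 over all genes. The growth regulator gene Myc rose from 0.06 ± 0.30 (SD, n = 4) to 1.28 ± 0.10, by 1.22 ± 0.24 (adjusted p = 0.00338), and was above sham in all 4 acupoint groups too, by 1.17, 1.03, 1.38 and 1.34 in Jiaji, Neiguan, Yanglingquan and Quchi, with each call held in all 37 alternatives. Against IRI 1 gene of the list was called in Jiaji, Neiguan and Quchi each and 0 in Yanglingquan, and in each it was Fgb, the fibrinogen beta chain, an acute-phase gene of liver. Fgb was well above background on 0 of 4 arrays in sham, IRI and Yanglingquan, on 4 in Jiaji and Quchi and on 3 in Neiguan. By the main signals Fgb was at least 2.36-fold higher than IRI in Jiaji, 3.56-fold in Neiguan and 4.57-fold in Quchi (adjusted p = 0.0185, 0.00642 and 0.00585). With normexp the log2 differences were smaller, at 0.31, 0.82 and 0.80, and all 3 calls ended (adjusted p = 0.596, 0.135 and 0.175). The Neiguan call also ended with only the groups compared (0.0644). The Jiaji call also ended with quantile normalization and the authors' deposited values (adjusted p = 0.0744 and 0.123) and without IRI replicate 2 or 4 or Jiaji replicate 3 (adjusted p = 0.0508, 0.0596 and 0.0543). Against sham, 3 of the 27 rose in Jiaji, 7 in Neiguan, 5 in Yanglingquan and 3 in Quchi, and 0 fell, with medians of 0.16, 0.43, 0.33 and 0.25 (all genes -0.09, -0.10, -0.06 and 0.04). Of all genes 17.5%, 12.5%, 5.79% and 11.8% were called higher. The share of the list was below that of all genes in Jiaji, near it in Quchi and above it in Neiguan and Yanglingquan. No set test was run. Cebpb, the transcription factor C/EBP beta, was among the genes of the list that rose in all 4 groups (0.63 ± 0.17, 0.69 ± 0.17, 0.58 ± 0.17 and 0.68 ± 0.17). Its Yanglingquan call ended without Yanglingquan replicate 2, 3 or 4 or sham replicate 2 or 3 (0.49 to 0.58, adjusted p = 0.0591 to 0.0996) and with quantile normalization, normexp or the authors' deposited values (0.16 to 0.21), or with only the groups compared (adjusted p = 0.126). In Quchi these 3 settings also ended the Cebpb call, and in Jiaji centring on the median did.

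Markers of inflammatory cells gave a mixed picture beside these results. Of 11 tested neutrophil markers, 8 were above background on all arrays and Ltf did not pass the filter. The mean level of the list was -3.68 ± 0.55 (SD, n = 4; -4.24 to -2.92) in sham and between -2.94 and -2.67 in the 5 injured groups. In IRI against sham 2 of 11 rose and 0 fell, and against sham 5 rose in Jiaji, 6 in Neiguan, 3 in Yanglingquan (with 1 lower) and 5 in Quchi. Of all genes 4.72% were called higher in IRI against sham. Against sham 17.5% were higher in Jiaji, 12.5% in Neiguan, 5.79% in Yanglingquan (7.21% lower) and 11.8% in Quchi. Against IRI the mean of the neutrophil list differed little (-2.83 in IRI, -2.80 in Jiaji, -2.75 in Neiguan), with 1 and 0 of 11 higher in Jiaji and Neiguan, the groups with more Socs3 and Il10. Of 16 monocyte and macrophage markers, 15 were above background on all arrays, with list means of 0.30 ± 0.30 in sham, 0.12 ± 0.33 in IRI, 0.07 ± 0.33 in Jiaji and 0.42 ± 0.09 in Neiguan. Of these 0 were called in IRI against sham in limma's test and 1 each rose in Jiaji and Neiguan against IRI. Of 11 lymphocyte markers 1 each rose in Jiaji and Neiguan against IRI and 0 fell. Of the fibroblast and endothelial markers (8 each) 0 were called by limma in IRI against sham, or in Jiaji or Neiguan against IRI. Of 14 cardiomyocyte markers 0 were called in IRI against sham, 2 each rose in Jiaji and Neiguan against IRI, and 9 in Yanglingquan. The share of all genes called higher than in IRI was 8.39% in Jiaji, 4.41% in Neiguan and 4.09% in Yanglingquan. The part of these cell types in the levels of Il6, Socs3 and Il10 was not tested.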

How the data were processed

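Per the file headers, the intensity values are processed, background-subtracted signals from Agilent Feature Extraction 11.0.1.1. A different version, 10.7.3.1, appears in the submitters' processing notes. The authors' deposited table of log2 values for the same arrays (column median 7.20, each of 24 columns closest to its own array) served as an alternative. The spot flags (other values, 0 or 1) are those of the deposited files. Control spots and 8733 outlier spots were left out, 0 spots were saturated, and spots of a probe were averaged to 30367 probes. RefSeq accessions named 18005 probes (59.3%). A probe passed if every array of some group had it well above background, and a gene's brightest passing probe stood for it. log2 signals minus each array's 75th percentile were fitted in R 4.3.3 with limma 3.58.1 (group and sex, 24 arrays, 17 residual degrees of freedom, Benjamini-Hochberg over 12894 genes, two-sided). The fit was tested on simulated data. Group-by-sex means were fitted after the Il6 values had been seen. The number of arrays limits the precision.

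The members, the gene lists and the naming rule were chosen with earlier results of these data known. The naming rule took all 9 genes; in the 4 pathway lists, called genes among the 4 smallest p of a comparison plus Il6r, Lifr, Il10rb, Jak1, Jak2 and Socs1; and the 5 genes of highest Pearson r with Socs3, Il6 and Il10. The text gives these for the main comparisons as far as they bear on the pathway; 1 called gene of the lists is not reported here. Alternatives (37) were other normalizations, filters, probe rules, designs and leaving out each array; 2 were added after seeing the data. The normexp alternative used median spot signals with an offset of 50. Replicate numbers did not pair the samples (60 same-number pairs correlated at -0.40 to 0.44).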

Additional observations from a re-analysis of the deposited data

Results flagged for a closer look

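In 53 group-by-gene sets of 4 arrays, 4 held an array set apart from the other 3 by Dixon's test; chance flags about 1 in 20 sets. Il6st was at 2.44 in Quchi replicate 4, below the other Quchi arrays, and Osm at -3.32 in sham replicate 1, above the other sham arrays. Osmr was at -1.67 in Jiaji replicate 1, above the other Jiaji arrays, and the calls of Osmr that end without this array are given with its values above. Il10 was at -3.59 in Quchi replicate 1, below the other Quchi arrays, and this array was scanned on a day of its own.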

How the results depend on the processing

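Of 33 called results for the 9 genes, counting pairs of groups and the F test, 9 held in all 37 alternatives: Socs3 in Jiaji and Neiguan against IRI and against sham, Il6 in Jiaji, Neiguan and Quchi against sham, and Osmr between Jiaji and Yanglingquan and in the F test. The cause of the changes below was not tested. How many of all genes were called is not given beside them except for leaving out single arrays, and there not for the F test. They are therefore not read as particular to the 9 genes. Lif between Jiaji and Yanglingquan turned from 0.40 to -0.0069 with quantile normalization and -0.0094 with normexp. The number of the 9 genes called fell with quantile normalization to 1 in Jiaji against IRI, 2 in Jiaji against sham, 1 in Yanglingquan against sham and 2 in the F test, and with normexp and the authors' deposited values to 1, 2, 0 and 2. With arrays centred on their median it was 2 in Jiaji, Neiguan and Quchi against sham; this shifts the median of all genes by -0.21 in Jiaji against IRI, -0.28 in Jiaji against sham and -0.14 in Neiguan against sham. Without the sex term it was 0 in IRI against sham and 1 in Yanglingquan against sham. With only the groups compared it was 0 in IRI against sham, 1 in Neiguan against IRI, 0 in Yanglingquan against sham and 1 in Quchi against sham. With the scan as a random block (consensus correlation -0.10, which narrows the errors) it was 2 in IRI against sham, 4 in Jiaji and 1 in Yanglingquan against IRI, and 4 in Yanglingquan against sham. With the percentile taken over probes above background on all arrays, chosen after seeing the data, it was 2 in Quchi against sham. With the replicate block in place of sex it was 1 in Yanglingquan against sham and within 1.5 times of the main count elsewhere. Leaving out single arrays gave 0 to 1 in IRI against sham, 2 to 2 in Jiaji, 1 to 2 in Neiguan, 0 to 0 in Yanglingquan and 0 to 0 in Quchi against IRI, 4 to 6, 2 to 5, 0 to 3 and 2 to 4 in these groups against sham, 3 to 4 in the F test and 0 to 0 between the sexes. The count of all genes called then ran from 440 to 958 in IRI against sham. Against IRI it was 858 to 1566, 456 to 897, 1071 to 1748 and 122 to 695 in the same order of groups. Against sham it was 2271 to 3240, 1657 to 2878, 837 to 1882 and 1562 to 3023, and between the sexes 21 to 73.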
